A study of Mus musculus with 42 samples.

Results

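In RNA purified with ribosomes, 64 out of 20661 mouse genes had a higher level in every cerebellum library than in any other library. The other libraries came from other regions of the central nervous system. Levels here are shares of a library and not amounts. The genes were chosen by their measured values. A gene needed at least 0.5 reads per kilobase and per M reads (RPKM, a level corrected for gene length and depth) in at least 5 of 24 libraries. Its lowest value in the 6 cerebellum libraries also had to exceed its highest value in the other 18. Of 13982 genes that passed the level filter, 74 met this rule, and 10 of them were left out by name. Because the rule used the cerebellum against the rest, that difference is given as a description with no test.

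The 24 libraries were made by translating ribosome affinity purification (TRAP), which pulls down ribosomes with the RNA they carry, and the labels name mature oligodendrocytes as the source cells. Of these libraries 6 came from cerebellum, 7 from frontal cortex, 6 from subcortical white matter and 5 from spinal cord. The labels give no genotype, age or driver line for these animals. No sample is labelled as an input or untagged control for TRAP, so RNA carried over from other cells was not tested. Whole frontal cortex RNA gave 3 rTg4510-negative and 3 rTg4510-positive libraries (8mo in the titles), and whole prefrontal cortex RNA gave 4 libraries null for miR-142, 4 heterozygous and 4 wild-type. The miR-142 titles also carry a letter and a number that the labels do not explain. The number is 14 in all 4 null libraries and in 3 heterozygous ones, 13 in the other heterozygous library and in 2 wild-type ones, and 15 in the other 2 wild types, so what it stands for and the difference between null and wild type cannot be told apart. The letter is F in 1 null, 1 heterozygous and 2 wild-type libraries and M in the rest. The rTg4510 line carries a mutant human tau transgene that is switched on in forebrain neurons, and miR-142 is a microRNA best known from blood cells and microglia. The labels do not state whether each library is a different animal (each rTg4510 title has its own number), and where they are not, the p-values below measure a spread that may be technical.

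The cerebellar cortex is built from a small set of cell types that sit in layers. Granule cells, the most numerous neurons of the brain, send parallel fibres to Purkinje cells, whose inhibitory axons are the only output of the cortex, and Bergmann glia are the astrocytes that line the Purkinje cell dendrites. Mature oligodendrocytes wrap the Purkinje and afferent axons of the cerebellar white matter in myelin and share their main gene programme with oligodendrocytes elsewhere.

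Depth ranged from 12.02 to 36.8 M reads in the cerebellum libraries, 5.80 to 24.7 M in cortex, 7.36 to 16.5 M in white matter and 3.26 to 12.99 M in spinal cord. The cerebellum libraries were on the whole the deepest, and the part of depth in the results was not tested. Depth was 13.9 to 27.02 M reads in the rTg4510 libraries and 22.8 to 31.8 M in the miR-142 libraries. The oligodendrocyte marker list, 20 genes that include Mbp, summed to 11325 to 73171 RPKM in cerebellum, and no gene of it was at 0 there. The 12 pan-neuronal genes summed to 4341 to 8754 RPKM in the same libraries. Fewer cells of a type and less RNA per cell cannot be told apart in such libraries.

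Promoter sequences are shown first for Smpx, Uncx and Cnpy1, chosen for their wide gap to the other regions, and for Rgs8, the most abundant of the 64. They run from 250 bases before to 50 after an annotated start on GRCm38.p6, come from RefSeq, and read 5′ to 3′ on the gene's strand. Capitals mark 3 short motifs searched on both strands: CAGATG, an E-box of the kind bound by NeuroD and Atoh1 proteins (CATCTG on the other strand), the E-box palindrome CAGCTG, and TAATTA, a core read by many homeodomain proteins. The Smpx window lies at chrX:157698723-157699022 (+ strand), the Uncx window at chr5:139543648-139543947 (+ strand), the Cnpy1 windows at chr5:28245739-28246038 and chr5:28210119-28210418 (- strand), and the Rgs8 window, the first of 3, at chr1:153652787-153653086 (+ strand).
Smpx: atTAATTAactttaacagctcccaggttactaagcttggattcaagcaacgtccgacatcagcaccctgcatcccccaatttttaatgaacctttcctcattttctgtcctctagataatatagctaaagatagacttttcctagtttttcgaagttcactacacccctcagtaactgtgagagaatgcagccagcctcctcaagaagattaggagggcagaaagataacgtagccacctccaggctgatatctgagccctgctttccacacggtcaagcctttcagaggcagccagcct
Uncx: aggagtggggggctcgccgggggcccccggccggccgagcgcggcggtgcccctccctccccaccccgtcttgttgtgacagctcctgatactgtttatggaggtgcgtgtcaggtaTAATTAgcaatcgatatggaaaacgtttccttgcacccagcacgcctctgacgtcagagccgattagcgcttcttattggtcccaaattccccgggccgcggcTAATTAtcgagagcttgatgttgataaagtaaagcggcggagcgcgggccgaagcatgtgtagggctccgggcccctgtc
Cnpy1, upstream start: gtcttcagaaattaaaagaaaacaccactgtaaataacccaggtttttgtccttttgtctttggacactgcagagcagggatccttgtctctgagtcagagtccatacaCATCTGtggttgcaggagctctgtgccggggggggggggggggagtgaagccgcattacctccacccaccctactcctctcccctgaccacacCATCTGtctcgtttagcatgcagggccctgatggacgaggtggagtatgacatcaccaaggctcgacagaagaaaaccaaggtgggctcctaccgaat
Cnpy1, inner start: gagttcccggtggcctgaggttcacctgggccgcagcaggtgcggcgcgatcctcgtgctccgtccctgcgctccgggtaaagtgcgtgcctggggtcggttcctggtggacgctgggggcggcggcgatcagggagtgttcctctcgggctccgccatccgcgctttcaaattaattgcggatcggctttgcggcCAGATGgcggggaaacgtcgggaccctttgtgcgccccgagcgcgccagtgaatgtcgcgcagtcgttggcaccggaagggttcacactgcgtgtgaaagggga
Rgs8: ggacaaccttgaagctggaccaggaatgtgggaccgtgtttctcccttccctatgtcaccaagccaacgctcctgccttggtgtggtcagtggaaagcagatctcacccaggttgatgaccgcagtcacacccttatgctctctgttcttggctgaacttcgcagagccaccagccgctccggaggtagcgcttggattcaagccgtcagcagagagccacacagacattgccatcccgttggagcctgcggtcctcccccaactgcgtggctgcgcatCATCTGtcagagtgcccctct

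The Uncx window held 2 copies of TAATTA and the Smpx window 1, the upstream Cnpy1 window held 2 copies of CATCTG, and the inner one held 1 CAGATG. Promoters were found for 51 of the 64 genes. At least 1 window held CAGATG in 9 of the 51 (17.6%), against 14.01% of 10617 genes that passed the level filter and 19.2% of all 27025 genes with a promoter. CAGCTG stood in 10 of 51 (19.6%, against 18.6% and 18.3%) and TAATTA in 4 of 51, in Smpx, Tfap2a, Uncx and Vldlr (7.84%, against 3.47% and 6.12%). The TATA box TATAAA was found in 2 of 51 (3.92%, against 8.92% and 15.7%) and the GC box GGGCGG in 29 of 51 (56.9%, against 67.98% and 38.2%). Some genes have several windows, which raises the chance of a match, and a match is a description of letters and not a binding site.

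The widest gaps were those of 2 genes that no other library held at all. Smpx, which encodes a small muscle protein, lies at chrX:157698973-157752591. Its level was 11.9, 17.04, 0.979, 7.32, 4.52 and 7.07 RPKM in cerebellum replicates 2, 3, 5, 6, 7 and 8, a mean of 8.14 ± 5.65 (SD, n = 6), from 325 reads. All 18 other libraries were at 0, so the pooled cerebellum level was at least 146-fold higher than the 3 reads that a count of 0 allows over the 18 libraries. Replicate 5 was the low one and rested on 3 reads. Cd70, a membrane ligand of the tumour necrosis factor family (chr17:57145997-57149777), ranged from 0.427 to 1.09 RPKM with a median of 0.638, from only 67 reads, and was at least 30.1-fold higher on the same basis. These floors cover counting error only.

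Transcription factors made up 9 of the 64. Uncx, a homeobox gene (chr5:139543865-139548179), was at 6.50, 39.5, 7.69, 9.37, 2.78 and 5.61 RPKM in cerebellum replicates 2, 3, 5, 6, 7 and 8. Its highest value elsewhere was 0.383 RPKM in white matter replicate 2, and the cerebellum mean of 11.9 ± 13.7 was 105 times the highest mean of another region. Replicate 3 stood apart from the other 5, none of which reached 10 RPKM. Barhl2, a homeobox gene of granule cells (chr5:106452523-106458166), ranged from 11.6 to 48.1 RPKM with a median of 31.2, against at most 0.150 among cortex, 1.53 among white matter and 5.85 among spinal cord libraries.

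Etv1, an ETS factor that granule cells express as they mature, was the most abundant factor, at 397 ± 141 RPKM in cerebellum, 76.4 ± 16.9 in frontal cortex (n = 7), 149 ± 36.8 in the white matter libraries (n = 6) and 185 ± 65.6 in those of spinal cord (n = 5). The regions came close to each other, with 265 RPKM as the lowest cerebellum value and 249.9 RPKM in spinal cord replicate 3 as the highest other. Pax6, which marks granule cells and their precursors, was at 34.1 ± 19.7 RPKM in cerebellum, and its highest value elsewhere was 11.01 RPKM in spinal cord replicate 7. Hes3, a repressor of the Hes family, was at 14.95 ± 7.60 RPKM, against 5.06 RPKM in cortex replicate 7. St18, a zinc finger factor, varied little between the cerebellum libraries, from 81.4 to 115 RPKM, and was at 42.6 ± 16.7 in white matter and 11.2 ± 5.19 in cortex.

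Tfap2a and Tfap2b, AP-2 factors of cerebellar inhibitory neurons, differed in where else they were found. Tfap2a ranged from 3.23 to 6.14 RPKM in cerebellum (median 4.70) and reached 1.67 RPKM in cortex replicate 6. Tfap2b ranged from 12.1 to 57.1 RPKM (median 25.97) and reached 10.5 RPKM in spinal cord replicate 8. Lhx1, a LIM homeobox gene of Purkinje cells, was at 20.9 ± 6.44 RPKM in cerebellum and reached 10.6 RPKM in spinal cord replicate 5. Of the 4 chromatin genes, Chd7 was the highest, at 70.4 ± 28.7 RPKM in cerebellum and 25.5 ± 5.95 in spinal cord.

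**Figure D1:**
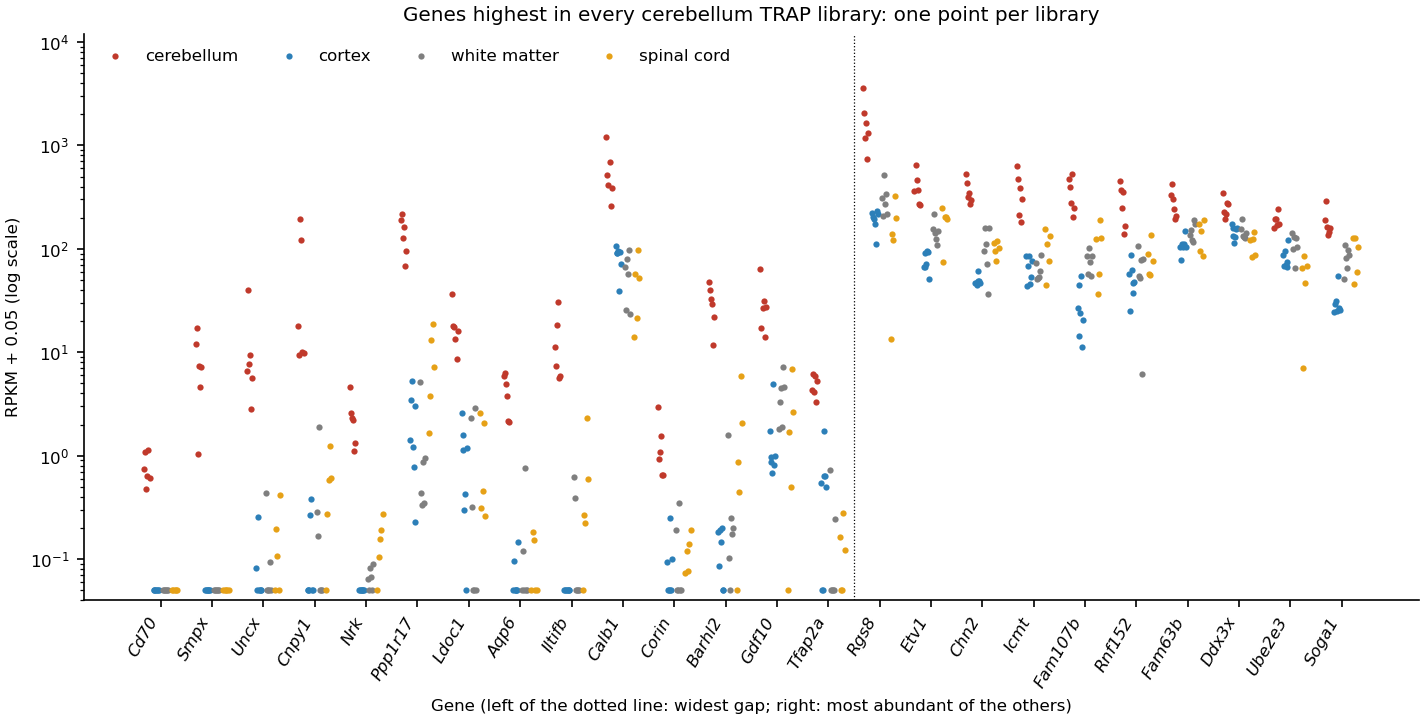
RPKM plus 0.05 on a log axis for 24 of the 64 genes, with 1 point for each TRAP library and a colour for each region. The cerebellum points lie above all others for each gene because the rule demands it; Smpx and Cd70 sit at 0 in all 18 other libraries, while on the right of the dotted line abundant genes such as Rgs8 and Ddx3x have high values in every region too.

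Rgs8 (chr1:153652959-153697669), a brake on G protein signalling that is rich in Purkinje cells, was the most abundant of the 64. It was at 3568, 2035, 1189, 1648, 733 and 1326 RPKM in cerebellum replicates 2, 3, 5, 6, 7 and 8. Levels in the other regions were 194 ± 41.6 RPKM in frontal cortex, 308 ± 112 for the white matter libraries and 158 ± 113 for those of spinal cord, so the gene was not absent there. Calb1, the calcium buffer calbindin of Purkinje cells (chr4:15881264-15906709), ranged from 257 to 1199 RPKM in cerebellum with a median of 467, and from 38.97 to 107 RPKM in cortex. Ppp1r17, a phosphatase inhibitor of Purkinje cells (chr6:56017497-56032689), was at 144 ± 57.5 RPKM, against 2.14 ± 1.77 in the cortex libraries, 1.30 ± 1.88 in those of white matter and 8.82 ± 6.996 in those of spinal cord.

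Other genes of signalling inside the cell had lower levels or smaller gaps. Chn2, a Rac regulator, was at 368 ± 98.6 RPKM and reached 160.2 RPKM in white matter replicate 3. Pde1c, a calcium-dependent cyclic nucleotide phosphodiesterase (chr6:56069798-56652510), was at 105 ± 49.9 RPKM and reached 47.98 RPKM in white matter replicate 6. Nrk, an X-linked kinase gene (chrX:138914231-139010532), was low but close to absent elsewhere, at 1.06 to 4.53 RPKM in cerebellum against at most 0.221 RPKM in spinal cord replicate 8. Ppp6c, a phosphatase subunit gene, had the smallest ratio of highest to lowest cerebellum library, 1.15 times (76.8 ± 3.83 RPKM).

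Ligands and receptors gave 9 of the genes. Gdf10, a growth factor of Bergmann glia, ranged from 13.9 to 63.5 RPKM with a median of 27.1, and its highest value elsewhere was 7.19 RPKM in white matter replicate 7. Dner, a Notch ligand of Purkinje cells, was at 69.3 ± 24.3 RPKM, with 38.4 RPKM in spinal cord replicate 5 as the nearest value. Iltifb, an interleukin gene, ranged from 5.54 to 30.8 RPKM and reached 2.28 RPKM in spinal cord replicate 7, from 4 reads. It has a near-identical copy, Il22, so its reads are uncertain. The interleukin receptor gene Il20rb was at 31.9 ± 21.2 RPKM and reached 6.25 RPKM in cortex replicate 7. Fzd1, a Wnt receptor, was at 32.3 ± 11.4 RPKM. Vldlr, a Reelin receptor, was the flattest of the receptors named here, at 125 to 153 RPKM in cerebellum and 88.7 ± 11.8 in white matter.

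Among the other roles, Slc1a6, the glutamate transporter EAAT4 of Purkinje cells, was at 10.8 ± 6.40 RPKM in cerebellum and reached 2.55 RPKM in spinal cord replicate 7. Dao, the D-amino acid oxidase of cerebellar astrocytes, was at 12.3 ± 7.62 RPKM and Fat2, a protocadherin of granule cell parallel fibres, at 35.4 ± 27.4. The water channel gene Aqp6 was at 4.12 ± 1.79 RPKM against at most 0.706 RPKM in white matter replicate 6, and Ldoc1 at 18.3 ± 9.66 against at most 2.81 RPKM in white matter replicate 7. The ubiquitin ligase gene Rnf152 (288 ± 124 RPKM), the deubiquitinase gene Fam63b (283 ± 87.7) and the ubiquitin-conjugating enzyme gene Ube2e3 (189 ± 28.8) were abundant, as were the prenyl-protein methyltransferase gene Icmt (363 ± 168), Fam107b (354 ± 132) and the RNA helicase gene Ddx3x (256 ± 55.6). These 6 had their nearest other value within a small margin, from 1.004 times in Fam63b to 1.17 times in Icmt.

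The remaining genes fell into small groups. Chromatin genes beside Chd7 were Dpf3, a subunit of the BAF remodelling complex (5.60 ± 2.98 RPKM), Setdb2 (7.89 ± 2.08) and Rif1, which acts in replication timing (36.5 ± 14.5). Trim62 (82.7 ± 53.9 RPKM) and Fem1c (36.04 ± 5.98) are ubiquitin ligase genes. Mybpc1 (6.65 ± 3.66 RPKM) and Mybpc3 (2.26 ± 1.53) encode myosin-binding proteins of muscle, as Smpx encodes a muscle protein. Low genes included the sodium-glucose transporter gene Slc5a1 (3.46 ± 2.76 RPKM, at 0 in all 7 cortex libraries), the receptor gene Asgr1 (4.06 ± 3.05), the desmosome gene Pkp3 (1.59 ± 1.18), the collagen gene Col18a1 (2.74 ± 2.28) and the protease gene Corin (1.26 ± 0.883). The orphan receptor gene Gprc5c was at 16.4 ± 10.5 RPKM.

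Genes of lipid handling were Cerk, the ceramide kinase (80.96 ± 9.19 RPKM), Pctp, a phosphatidylcholine carrier (3.62 ± 1.57), and Osbpl2, an oxysterol-binding protein (44.7 ± 3.16). Galnt7, an enzyme gene of O-glycan synthesis, was at 42.6 ± 8.31 RPKM. The trafficking and cytoskeleton genes Stx18 (63.2 ± 13.7 RPKM), Ttll5 (63.05 ± 6.37), Cep76 (74.5 ± 34.1) and Mreg (44.2 ± 14.98) and the adaptor gene Git2 (50.1 ± 16.4) lay at intermediate levels. Soga1 (180.2 ± 56.5 RPKM), 1190002N15Rik (141 ± 37.6), 3632451O06Rik (17.3 ± 5.18) and the RNA-binding protein gene Trove2 (139 ± 22.5) complete the set with Ncmap, which is described with the differences between cerebellum libraries. Of all 64, 16 had a cerebellum mean of at least 100 RPKM, 32 lay between 10 and 100 and 16 below 10. In the other 18 libraries 32 genes reached 0.5 RPKM in every library and 7 in none.

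Some of the genes are neighbours. Cnpy1, which in fish supports fibroblast growth factor signalling at the border of midbrain and hindbrain (chr5:28200819-28245788), lies 28.6 kb from En2, a patterning gene that also met the rule and was left out by name, with no coding gene between them. Cnpy1 was at 17.9, 9.42, 194, 122, 10.1 and 9.86 RPKM in cerebellum replicates 2, 3, 5, 6, 7 and 8 and reached 1.83 RPKM in white matter replicate 5. It was thus high in replicates 5 and 6 and low in the other 4, whereas En2 was at 49.1 ± 10.6 RPKM with no such split. Hes3 (chr4:152285250-152291911) and Icmt (chr4:152297214-152307126) lie 5.3 kb apart and Pde1c and Ppp1r17 37.1 kb apart, in both cases with no coding gene between. In RefSeq, 8 of the 64 overlap another coding gene. The TRAP kit is not described as stranded, so reads of overlapping genes cannot be told apart.

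The margin was small for most of the genes. Leaving out Smpx and Cd70, the lowest cerebellum value exceeded the highest other value by a median of 1.21 times over 62 genes, by 2 times or more in 9 and by 1.5 times or more in 16. Trove2 (ratio 1.003), Fam63b (1.004), Ddx3x (1.01), Ppp6c (1.02) and Rnf152 (1.03) lay just inside the rule. Zrsr1 and Zfpm2 (both 0.994), Nlrp10 (0.992), Ptpn22 (0.990) and Socs4 (0.981) lay just outside. The means lay further apart, with the cerebellum mean 1.33 to 121 times the highest mean of another region and a median of 5.46. The same rule, with no name left out, found 105 genes for cortex, 7 for white matter and 262 for spinal cord. The highest value outside the cerebellum was in a spinal cord library for 27 genes, in white matter for 25 and in cortex for 12.

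The 64 held genes of 4 lists of cerebellar cell type markers. Of the granule cell list of 22 genes, 5 were members (Barhl2, Chn2, Etv1, Fat2 and Pax6) and 11 met the rule before names were left out. Of the Purkinje cell list of 24, 6 were members (Calb1, Dner, Lhx1, Ppp1r17, Rgs8 and Slc1a6) and 8 met the rule. The Bergmann glia list gave 2 of 12 (Dao and Gdf10) and the list of cerebellar interneurons and unipolar brush cells 2 of 18 (Tfap2a and Tfap2b). The highest region mean lay in cerebellum for 18 of 22 granule cell, 19 of 24 Purkinje cell and 7 of 12 Bergmann glia genes. This held for 10 of the 17 interneuron and unipolar brush cell genes that passed the filter. Genes that met the rule had to be among these, 11 of the granule cell and 8 of the Purkinje cell list. The highest mean also lay in cerebellum for 8 of 20 oligodendrocyte genes and 0 of 12 pan-neuronal genes. Of genes that passed the filter, it did so for 7 of 14 choroid plexus and 6 of 10 hindbrain patterning genes. The share over all genes was not computed. The Bergmann glia list summed to 1183 to 2128 RPKM in cerebellum and 1132 to 1850 in spinal cord, ranges that overlapped. Among the hindbrain patterning list of 18, En2 met the rule and was left out by name. None of the genes on the other lists met it, those for oligodendrocytes (20 genes), their precursors (7), astrocytes (10), microglia (9), all neurons (12), forebrain excitatory neurons (10), cerebellar nuclei (7), choroid plexus (19), ependyma (7), meninges (10), vessels (10) or erythrocytes (5). The defining Purkinje gene Pcp2 was at 69.6 ± 34.8 RPKM in cerebellum but did not meet the rule, since spinal cord replicate 7 held 41.0 RPKM and the lowest cerebellum library 27.6. These counts are a description, with no test.

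The cerebellum libraries also differed widely from each other. The highest cerebellum value of a gene was a median of 3.36 times its lowest, from 1.15 times in Ppp6c to 29.5 times in Ncmap, a myelin protein gene that stood at 36.2 RPKM in replicate 3 and at most 3.80 in the others. In 39 of the 64 the lowest value was in replicate 7, and in 29 the highest was in replicate 2, counts whose share over all genes was not computed. The median gene lay 0.51 above its cerebellum mean in replicate 2 and 0.72 below it in replicate 7 on the log2(RPKM + 0.5) scale, against -0.19 and -0.02 for all genes. The same libraries were at the ends of the marker lists. The oligodendrocyte list summed to 11325 RPKM in replicate 2 and 73171 in replicate 7, while the Purkinje list summed to 11168 and 2096 and the granule cell list to 4849 and 1196.

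Between these libraries, picked after their values were seen, 55 of the 64 genes (85.9%) were higher in replicate 2 than in replicate 7, against 43.1% of all genes that passed the filter. All 22 granule cell and all 24 Purkinje cell genes were higher in replicate 2, and none of the 20 oligodendrocyte genes were; 5 and 6 of the first 2 lists are among the 64. Replicate 2 was also the higher for 9 of 12 pan-neuronal and 9 of 10 astrocyte genes. Fat2 showed the widest ratio, 81.5 against 7.02 RPKM (11.6 times), and Rgs8 (4.87 times), Calb1 (4.66) and Gdf10 (4.56) were among the 9 widest. The 9 genes that were lower in replicate 2 were Setdb2, Cd70, Ube2e3, Ncmap, Galnt7, Vldlr, Osbpl2, Ttll5 and St18. Setdb2, a histone methyltransferase gene, was at 4.94 against 9.68 RPKM and Ube2e3 at 161 against 241. A difference between 1 library and another has no replicate check, and the part of the marker lists in it was not tested.

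**Figure D2:**
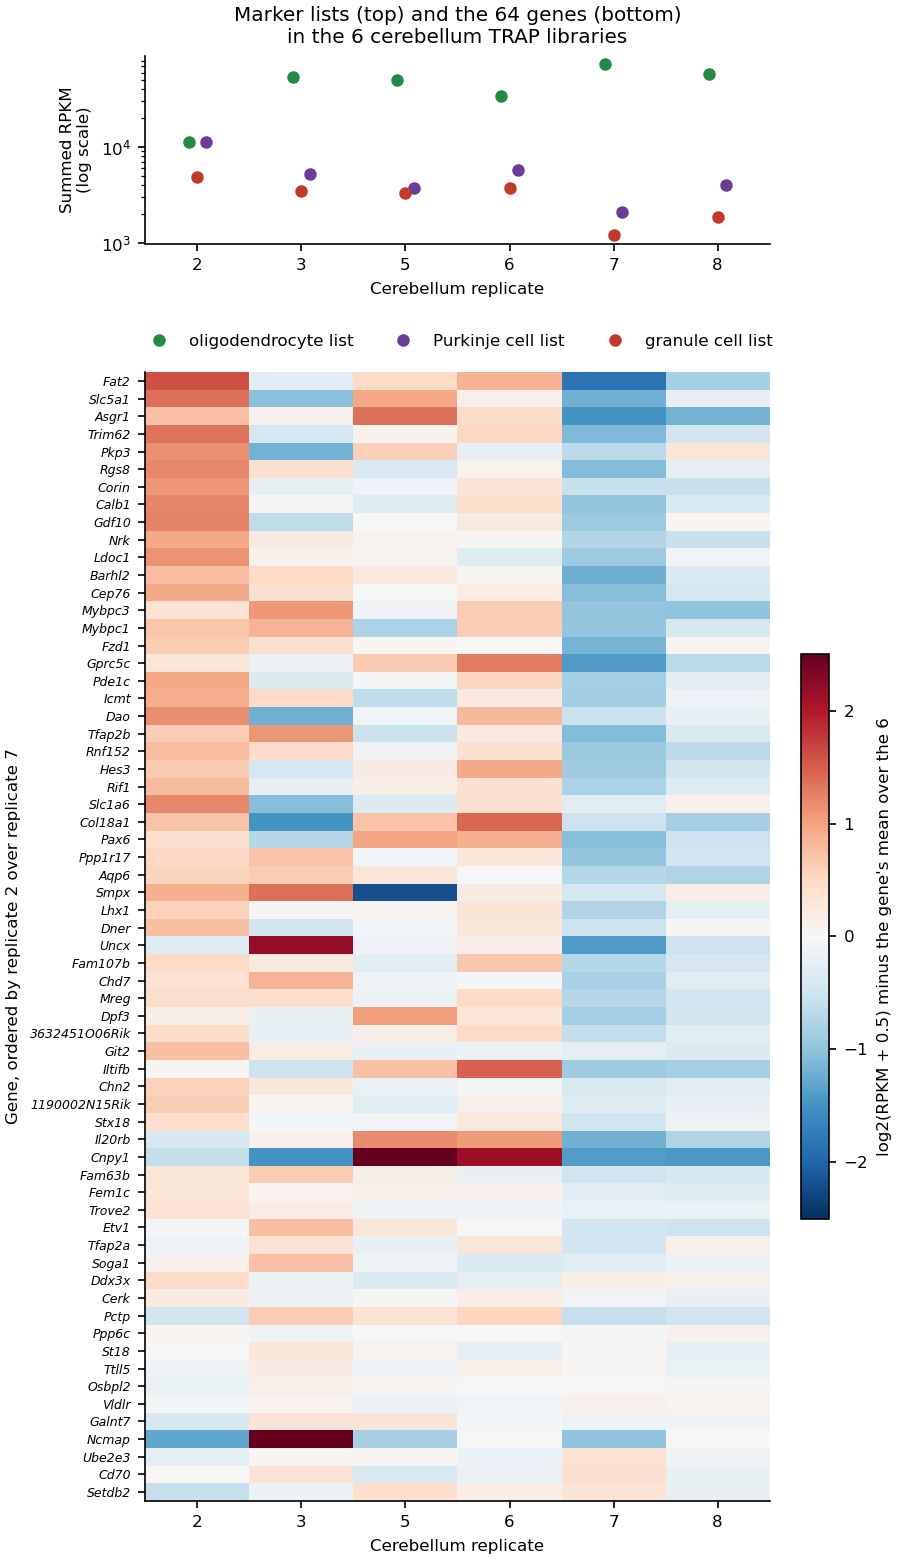
Top, summed RPKM of 3 marker lists on a log axis in each cerebellum replicate; bottom, each gene's log2(RPKM + 0.5) minus its mean over the 6 replicates, ordered by replicate 2 over replicate 7. Replicate 2 holds the fewest oligodendrocyte list RPKM (11325) and the most Purkinje list RPKM (11168), and most of the 64 genes are red there and blue in replicate 7; Cnpy1 and Ncmap follow other replicates.

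Differences among the 3 other regions did not choose the genes, although the rule put a ceiling on these 18 libraries. They were tested with limma on log2(RPKM + 0.5) with Benjamini-Hochberg adjustment over 13654 genes. Of the 64, 49 reached 0.5 RPKM in at least 5 of the 18 libraries and were tested. The other 15 were too low outside the cerebellum: Aqp6, Asgr1, Barhl2, Cd70, Cnpy1, Col18a1, Corin, Iltifb, Mybpc3, Nrk, Pkp3, Slc5a1, Smpx, Tfap2a and Uncx. White matter was higher than cortex for 6 of the 49 and lower for none, where 2.9% of all genes tested were higher and 1.74% lower. The median log2 fold change was 0.06 over the 49 and -0.02 over all genes.

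Pde1c ranged from 6.36 to 12.6 RPKM in cortex (median 9.03) and from 22.1 to 47.98 in white matter (median 39.9), and these groups did not overlap. It was higher in white matter by 1.93 ± 0.30 (limma, SE on the log2 scale, adjusted p = 6.72e-04). Chd7, a chromatin remodeller needed for oligodendrocyte maturation and for granule cells, ranged from 4.24 to 6.80 RPKM in cortex and 10.1 to 27.4 in white matter, groups that did not overlap, and rose by 1.73 ± 0.31 (adjusted p = 0.00233). St18 rose by 1.92 ± 0.35 (adjusted p = 0.00287), Soga1 by 1.40 ± 0.29 (adjusted p = 0.00599) and Fam107b by 1.59 ± 0.38 (adjusted p = 0.0168). Etv1 was higher by 0.96 ± 0.26 (adjusted p = 0.0360), a call lost when cortex replicate 2, 4, 5 or 8 or white matter replicate 2, 3, 5 or 8 was left out (adjusted p from 0.0611 to 0.118). Leaving out white matter replicate 3 took the calls over all genes from 634 to 257, and leaving out cortex replicate 2, 5 or 8 or white matter replicate 8 took them to 383, 371, 356 and 350. The oligodendrocyte list summed to 7964 to 16719 RPKM in the cortex libraries and 13883 to 71671 in those of white matter, ranges that overlapped, and its part in these differences was not tested.

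Between spinal cord and cortex, 13 of the 49 were higher in spinal cord and 1 lower, where 15.3% of all genes were higher and 25.6% lower. The median log2 fold change was 0.14 over the 49 and -0.34 over all genes. Chd7 was at 23.8, 17.7, 24.6, 27.6 and 34.00 RPKM in spinal cord replicates 3, 4, 5, 7 and 8, which did not overlap with the cortex libraries, and was higher by 2.11 ± 0.33 (adjusted p = 2.17e-05). Soga1 (1.51 ± 0.30), St18 (1.79 ± 0.37), Fam107b (1.88 ± 0.40), Etv1 (1.19 ± 0.27) and Chn2 (1.04 ± 0.29) also rose, with adjusted p from 3.55e-04 to 0.00705. Tfap2b was at 2.43, 3.95, 4.06, 2.80 and 10.5 RPKM in the same spinal cord libraries and at 0.110 to 2.31 in cortex, groups that did not overlap, and rose by 2.08 ± 0.50 (adjusted p = 0.00195). Lhx1, which also marks spinal interneurons, was at most at 0.256 RPKM in cortex and at 0.873 to 10.6 in spinal cord. It is 1 of the 13 called, but it passed the level filter only through the spinal cord libraries and so had to differ. No test is given for it. Tfap2b, and Fat2 and Dao below, also passed only with spinal cord libraries counted, so the filter favoured their calls. Trove2, which encodes the Ro60 RNA-binding protein, fell by 0.85 on the log2 scale (adjusted p = 0.0207). The oligodendrocyte list summed to 37953 to 75617 RPKM in spinal cord and 7964 to 16719 in cortex, and the astrocyte list to 6924 to 11524 and 2207 to 4370. Neither pair of ranges overlapped, and their part in these differences was not tested.

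The remaining calls were Fat2 (1.56 ± 0.48, adjusted p = 0.0126), Pde1c (0.95 ± 0.32, adjusted p = 0.0208), Cep76 (1.16 ± 0.42, adjusted p = 0.0316), Ppp1r17 (1.73 ± 0.64, adjusted p = 0.0354) and Dao (1.22 ± 0.47, adjusted p = 0.0399). These 5 and Trove2 were not called when spinal cord replicates 4 and 7 were left out, with adjusted p from 0.0692 to 0.261. Single libraries ended some of these calls too. Pde1c was lost without spinal cord replicate 7 (adjusted p = 0.0586) and Trove2 without replicate 4 or 7 (up to 0.0702). Cep76 was lost without cortex replicate 4, 6 or 8 or spinal cord replicate 7 or 8 (up to 0.0693), Dao without cortex replicate 2, 5, 7 or 8 or spinal cord replicate 4, 7 or 8 (up to 0.0942), and Ppp1r17 without cortex replicate 2, 5, 6 or 8 or spinal cord replicate 5, 7 or 8 (up to 0.101). With replicates 4 and 7 left out together 11 of 45 genes were higher and 2 lower. Replicate 7 held the highest value outside the cerebellum for 11 of the 64 genes, a count whose share over all genes was not computed. It had the lowest depth of all TRAP libraries, 3.26 M reads, so its low values rest on few reads. It was the highest of the 5 spinal cord libraries for 39.1% of the 64, against 25.7% of all genes that passed the filter. Its oligodendrocyte list sum of 37953 RPKM was the lowest of the 5 and its astrocyte list sum of 11524 RPKM the highest. It also held the most granule cell list RPKM of the spinal cord libraries, 954 against 410 to 499 in the other 4, and the most Purkinje list RPKM, 1247 against 226 to 676. Fat2 was at 0.283, 1.78, 0.766, 6.58 and 1.94 RPKM in spinal cord replicates 3, 4, 5, 7 and 8, high in replicate 7. The part of that library in the spinal cord calls was not tested beyond leaving it out.

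Between spinal cord and white matter, 6 of the 49 were higher in spinal cord and 5 lower, where 8.09% of all genes were higher and 16.4% lower. The median log2 fold change was 0.09 over the 49 and -0.30 over all genes. Tfap2b had the smallest p among the increases, with 2.72 ± 0.52 (adjusted p = 4.60e-04), and at most 0.726 RPKM in white matter. Dao (1.88 ± 0.48, adjusted p = 0.00615), Cep76 (1.58 ± 0.44, adjusted p = 0.0107), Ppp1r17 (2.40 ± 0.67, adjusted p = 0.0107) and Fat2 (1.37 ± 0.50, adjusted p = 0.0471) also rose. Lhx1 is the other of the 6, with no test given because it passed the level filter only through the spinal cord libraries. That filter favoured Tfap2b, Dao and Fat2 here too. Cep76 encodes a centriole protein. Trove2 fell by 0.99 on the log2 scale (adjusted p = 0.0169), and Ube2e3 fell by 1.36 on the log2 scale (adjusted p = 0.0249). Pde1c fell by 0.98 on the log2 scale (adjusted p = 0.0321), Rgs8 fell by 1.44 on the log2 scale (adjusted p = 0.0388) and Vldlr fell by 0.73 on the log2 scale (adjusted p = 0.0423). These 3 decreases were not called under median-of-ratios scaling (adjusted p = 0.0800 for Pde1c, 0.0791 for Rgs8 and 0.120 for Vldlr). With that scaling 8 of the 49 were higher and 2 lower. With quantile normalization 11 were higher and 5 lower, and Pde1c was again not called (adjusted p = 0.0657). Leaving out spinal cord replicates 4 and 7 ended the calls of Fat2, Trove2, Ube2e3 and Vldlr (adjusted p from 0.122 to 0.295), and 5 of 45 were then higher and 3 lower. Lhx1 was not called without spinal cord replicate 5, and neither was Trove2 without replicate 4 (adjusted p = 0.0502). Fat2 was lost without any 1 of 13 libraries (adjusted p up to 0.143), Vldlr without any 1 of 10 (up to 0.119), and Pde1c and Rgs8 each without any 1 of 6 (up to 0.0730 and 0.0982). Rgs8 was at 13.3, 139, 121, 321 and 198 RPKM in spinal cord replicates 3, 4, 5, 7 and 8, and without the low replicate 3 its log2 difference was -0.70. Ube2e3 was called without replicate 4 too, with a log2 difference of -0.73. Without white matter replicate 6 the number of the 64 called went from 11 to 7. The forebrain excitatory list of 10 genes summed to 1555 to 5220 RPKM in white matter and 30 to 186 in spinal cord, with no overlap. The pan-neuronal list summed to 4877 to 9983 and 6340 to 10450, ranges that overlapped, and the part of these lists was not tested. The 3 contrasts share libraries in pairs, so their calls are not independent of each other.

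**Figure D3:**
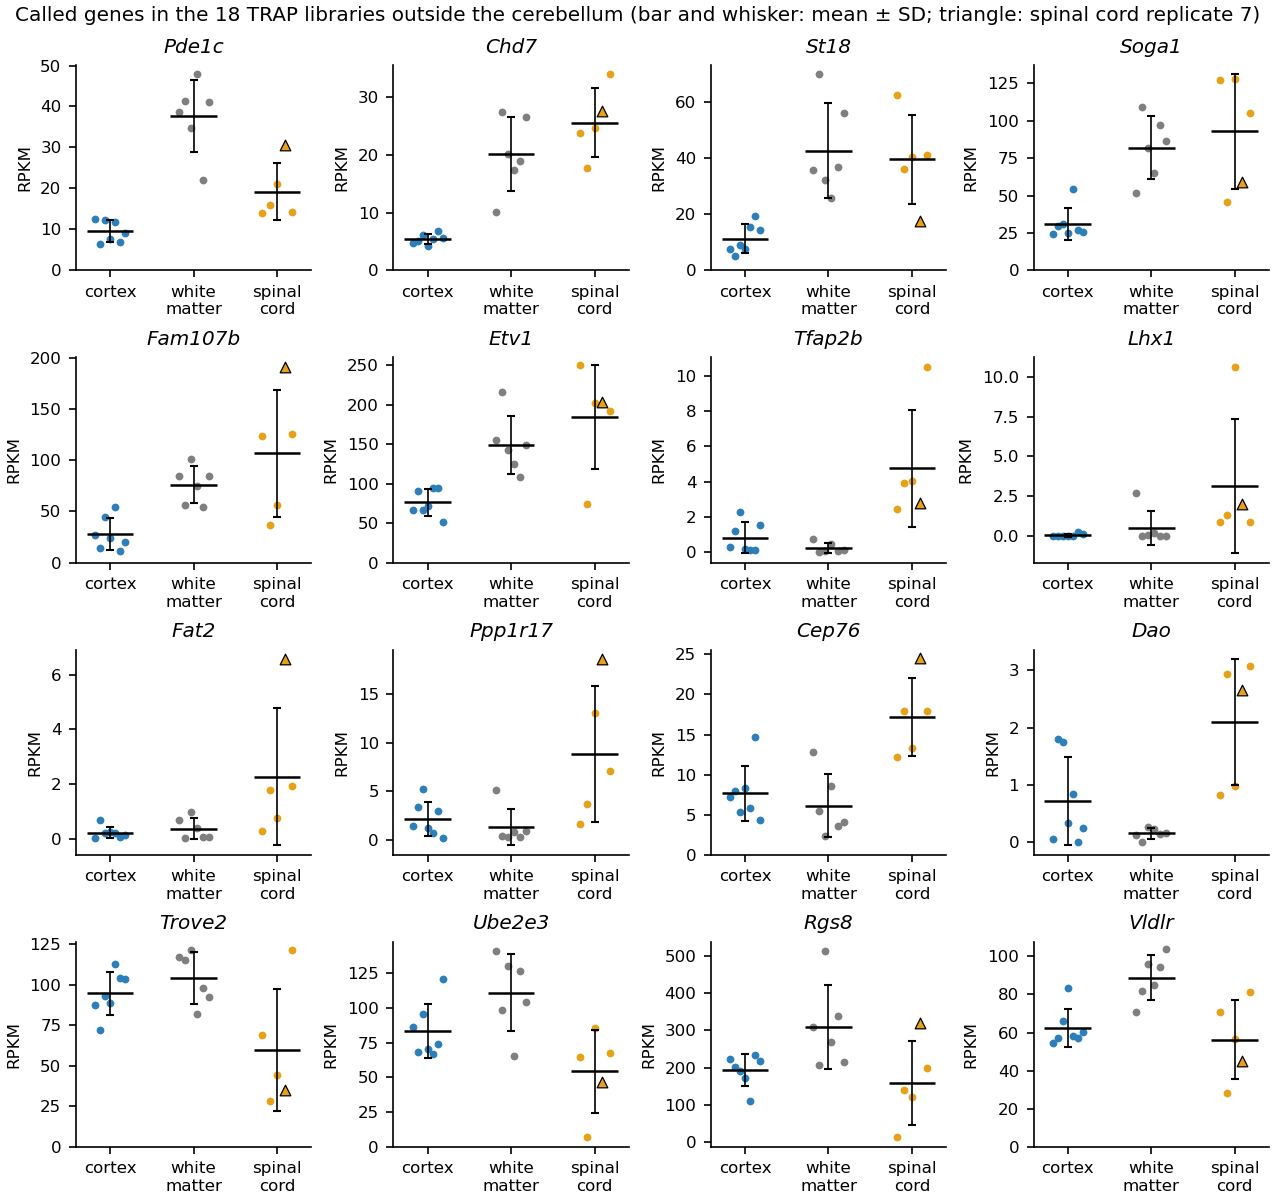
RPKM in the 18 TRAP libraries of cortex, white matter and spinal cord for 16 called genes, with 1 point per library and the mean ± SD; the triangle is spinal cord replicate 7. Pde1c in white matter and Tfap2b in spinal cord lie above all cortex libraries, and the triangle is the highest spinal cord point for Fat2, Ppp1r17, Cep76, Fam107b, Pde1c and Rgs8.

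In whole frontal cortex of rTg4510 mice, 48 of the 64 genes passed the level filter, and 5 were higher and none lower in positive than in negative libraries, where 5.77% of 13972 genes were higher and 1.65% lower. The median log2 fold change was 0.22 over the 48 and 0.09 over all genes. At an unadjusted p under 0.05 there were 18 of the 48, as were 3736 of all 13972. Smpx was at 0 in all 3 negative libraries and at 0.871, 1.37 and 1.13 RPKM in the positive ones, from 19 reads in all, at least 6.14-fold higher than the 3 reads a count of 0 allows. It is 1 of the 5 called, but it passed the level filter only through the positive libraries and so had to differ, and no test is given for it. In the miR-142 wild-type libraries it was at 0 in 3 and at 0.148 RPKM in 1, a single read. The heterozygous libraries held 0.493, 0.254, 0.259 and 0.617 RPKM and the null ones 0.626, 0, 0.142 and 0.416.

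The other 4 called genes were measured in both groups. Dner was at 51.1, 59.9 and 48.5 RPKM in negative and 72.1, 91.9 and 85.8 in positive libraries and rose by 0.64 ± 0.12 (adjusted p = 0.0212). Ddx3x was at 185, 184 and 176 RPKM in negative and 227, 274 and 284 in positive libraries and rose by 0.52 ± 0.10 (adjusted p = 0.0224). Ncmap was at 0.951, 1.73 and 1.46 RPKM in negative and 2.61, 3.18 and 3.26 in positive libraries and rose by 0.92 ± 0.21 (adjusted p = 0.0372). Pax6 was at 9.72, 9.77 and 11.1 RPKM in negative and 16.8, 41.6 and 47.6 in positive libraries and rose by 1.62 ± 0.37 (adjusted p = 0.0497). The groups did not overlap for any of these 4, which were picked by their p, so this adds no support to the calls. The share of all genes without overlap was not computed. Positive replicate 1 was the low positive library for Pax6. With 3 libraries a group the calls were fragile: each of Dner, Ddx3x, Ncmap and Pax6 was lost when negative replicate 1 or 3 or positive replicate 2 or 3 was left out (adjusted p from 0.0823 to 0.158), and Pax6 also without negative replicate 2 (0.0869). Without positive replicate 1, 15 of the 64 were called, and the calls over all genes went from 1037 to 2323; without any 1 of the 4 named libraries they went to 264 to 358. Ncmap was not called under median-of-ratios scaling (adjusted p = 0.0524), and neither was Pax6 (0.0560).

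Positive replicates 2 and 3 were also the high libraries for other members that were not called. Ppp1r17 was at 0.155, 4.47 and 5.14 RPKM in the positive libraries and at 0.706, 1.17 and 0.790 in the negative ones. Barhl2 was at 0.129, 2.29 and 2.19 against 0.0365, 0 and 0.286 RPKM. Positive replicate 1 was low for both. Calb1 was at 167, 189.8 and 128 RPKM in negative and 114, 61.5 and 75.7 in positive libraries, a difference of -0.97 ± 0.24 (adjusted p = 0.0578) that missed the threshold.

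In whole prefrontal cortex of miR-142 mice, 46 of the 64 passed the level filter, and limma called none in either comparison. Null against wild type, 0.209% of 13879 genes were higher and 0.259% lower, and 12 of the 46 had an unadjusted p under 0.05, as did 3134 of all genes. The median log2 fold change was 0.08 over the 46 and 0.01 over all genes. Leaving out a library raised the number of members called from 0 to 6 without heterozygous replicate 4, to 3 without wild-type replicate 1 and to 2 without null replicate 2. The smallest p among the increases were those of 1190002N15Rik and Rnf152. The first was at 53.1, 48.03, 43.2 and 50.3 RPKM in wild-type and 73.98, 62.7, 77.4 and 69.8 in null libraries, a difference of 0.54 ± 0.12 (adjusted p = 0.0514). Its null libraries lay above its wild-type ones, while the heterozygous ones, 72.5, 54.5, 66.5 and 46.9 RPKM, overlapped both. Rnf152, a ubiquitin ligase of the lysosome, was at 21.8, 23.1, 21.4 and 25.9 RPKM in wild-type and 38.5, 38.7, 33.8 and 26.7 in null libraries (0.56 ± 0.12, adjusted p = 0.0521), also without overlap. Among the decreases Rgs8 was at 202, 214, 246 and 229 RPKM in wild-type and 165, 178, 167 and 203 in null libraries (-0.32 ± 0.08, adjusted p = 0.0634), and the groups overlapped by 1 null library. Fzd1 came next (-0.33 ± 0.13, adjusted p = 0.164).

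Heterozygous against wild type, 0% of genes were higher and 0% lower, and 5 of the 46 had an unadjusted p under 0.05, as did 1008 of all genes. The smallest p were those of Rnf152 (0.45 ± 0.12) and Etv1 (0.25 ± 0.10) among increases and Rgs8 (-0.20 ± 0.08) and Soga1 (-0.35 ± 0.16) among decreases, each with adjusted p = 0.674. Both comparisons share the 4 wild-type libraries, so their values are not independent.

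**Figure D4:**
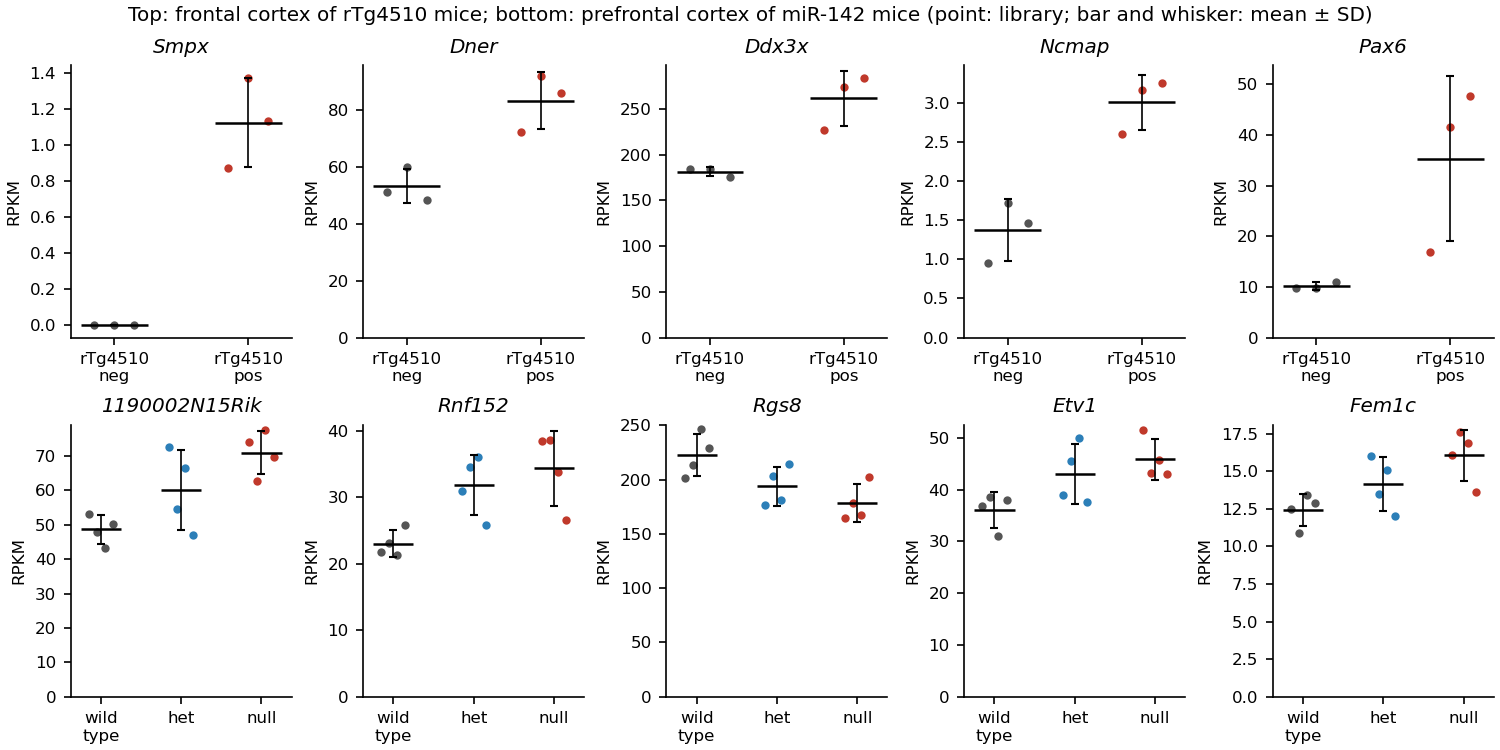
RPKM per library with the mean ± SD: top, Smpx and the 4 other genes called between rTg4510-negative and -positive frontal cortex; bottom, the 5 genes with the smallest p between miR-142 null and wild-type prefrontal cortex. All 3 positive libraries lie above the negative ones in the top row, with Pax6 spread from 16.8 to 47.6 RPKM, and none of the bottom 5 passed the adjusted threshold.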

How the data were processed

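The authors deposited 3 tables of RPKM. The submitters' processing notes name mm10, STAR and HTSeq; versions are not given in the sources used here. TRAP libraries were amplified with a NuGEN kit (50 bp pairs) and cortex libraries made with TruSeq Stranded (75 bp pairs), both after rRNA removal, per the labels' protocols. Groups follow the tissue and genotype labels. Depths were set from genes with 1 coding length in GENCODE. Each gene's length was then taken as the smallest whole number that gave whole reads within 0.005 in all libraries. Such a length was found for all 18782 genes above 0, and 86.02% of these lengths were multiples of 3. The reads come from these lengths, so their being whole is no check of them. The members and lists were chosen with earlier results of these data known.

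Tests used limma 3.58.1 in R 4.3.3 (trend, robust) on log2(RPKM + 0.5), since RPKM are not counts, so a fold of a low gene is understated. A gene needed 0.5 RPKM in at least 5 of the 18 TRAP libraries outside the cerebellum, 3 of 6 rTg4510 or 4 of 12 miR-142 libraries, and a call a Benjamini-Hochberg adjusted p under 0.05 over all genes tested. The fits were also run on simulated data, drawn independently for each gene and library. These had no shifts shared by a whole library, so the simulation cannot check the effect of such shifts. Genes were named if among the 12 widest gaps at a cerebellum mean of at least 2 RPKM, the 10 most abundant, on a marker list, called (up to 8 a direction) or with the smallest p of a contrast, nearest to the rule's boundary, or by textbook role; Cd70 and library-specific examples were picked after their values were seen. The ± sign gives the SD for RPKM and the SE for log2 differences. Alternatives were other pseudocounts, filters, scalings, library weights, sample sets and left-out libraries. Positions and promoters are RefSeq on GRCm38.p6, with 60 genes matched by symbol and 4 by an older name. Python 3.11.15 with numpy 2.4.6 and pandas 2.3.3 made the summaries, and matplotlib 3.10.9 the plots.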

Additional observations from a re-analysis of the deposited data

Results flagged for a closer look

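A library was singled out where its distance to the nearest other library of its group took up more of the group's range than Dixon's 95% limit. This held for 36 of 339 gene and group pairs. The limit gives about 1 in 20 for independent, normally distributed values. RPKM were used without logs and the genes share libraries, so that rate is no yardstick here. The explanations were not tested.

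In cerebellum, replicate 2 was high for Gdf10 (63.54 RPKM) and Ldoc1 (36.79), and replicate 3 for Ncmap (36.24), Soga1 (289.7) and Uncx (39.53). In cortex, replicate 7 was high for Cep76 (14.69 RPKM), Hes3 (5.057), Il20rb (6.254) and Trim62 (19.4), replicate 6 for Chn2 (60.97), Gdf10 (4.829), Gprc5c (3.32), Soga1 (54.51) and Tfap2a (1.675), and replicate 5 for Vldlr (83.2). In spinal cord, replicate 7 was high for Fat2 (6.575 RPKM), Iltifb (2.283, from 4 reads), Pax6 (11.01) and Slc1a6 (2.55). Replicate 8 was high for 3632451O06Rik (7.024) and Tfap2b (10.52), and replicate 5 for Lhx1 (10.62). White matter replicate 2 was high for Lhx1 (2.697 RPKM) and Ppp1r17 (5.102).

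In the miR-142 libraries, wild-type replicate 4 was high for Chd7 (3.072 RPKM), Chn2 (32.89), Pax6 (18.06), Pde1c (8.098), Ppp1r17 (1.999) and Rif1 (10.39). Wild-type replicate 1 was high for Il20rb (0.8905 RPKM) and Trove2 (87.97), and replicate 3 low for Setdb2 (3.242). Heterozygous replicate 3 was high for Chd7 (2.755 RPKM) and Dpf3 (4.91), and null replicate 1 low for Gprc5c (2.66).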

How the results depend on the processing

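Of 36 called gene results, 15 kept their call under every alternative run and none turned direction. Without Smpx in rTg4510, whose call the level filter fixed, this was 14 of 35. These 35 still include the calls of Lhx1, which passed the filter only through spinal cord libraries. The rule found 18 genes with a margin of 1.5 times and 63 to 102 when single libraries were left out, 102 without cerebellum replicate 7. Calls over all genes for white matter against cortex were 634, and became 2586 with library weights, 1404 with only these regions in the fit, 1233 without spinal cord replicates 4 and 7 and 257 to 864 without single libraries. Members called for spinal cord against cortex went from 14 to 22 with quantile normalization. For spinal cord against white matter, calls over all genes went from 3342 to 2200 with only these regions, and members from 11 to 3 with weights, 4 with only these regions and 7 to 11 without single libraries. For rTg4510, calls went from 1037 to 5018 with weights and 264 to 2323 without single libraries, and members from 5 to 3 without a filter, 3 at 1 RPKM, 3 with quantile normalization, 29 with weights and 0 to 15 without single libraries. For null against wild type, calls went from 65 to 0 with a pseudocount of 1, 2 without a filter, 0 with median-of-ratios scaling, 1297 with weights, 41 with the letter F or M of the titles as a covariate, 219 with only these groups and 0 to 697 without single libraries. Members went from 0 to 7 with weights, 2 with only these groups and 0 to 6 without single libraries. For heterozygous against wild type, calls went from 0 to 1 with weights and 0 to 4 without single libraries. The causes were not tested.

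Scaling moved the median log2 change of all genes for spinal cord against cortex from -0.34 to -0.19 (median-of-ratios) and 0.02 (quantile), and against white matter from -0.30 to -0.14 and -0.01. The splits of higher against lower calls moved with it, from 2092 and 3496 to 2451 and 3028 or 2496 and 2621 for cortex, from 1104 and 2238 to 1475 and 1787 under median-of-ratios for white matter, and from 806 and 231 to 537 and 388 or 433 and 325 for rTg4510. Replicate numbers were not used as pairs in the main fits, and the labels do not say whether a shared number means a shared animal. Same-numbered libraries correlated at -0.236 to 0.272, and the best match of a library had its own number in 7 of 24. The correlation was over 0.1 in 13 of 31 same-numbered pairs (median 0.06) and in 24 of 184 other pairs (median -0.02). These values do not settle whether the numbers pair the TRAP libraries. With the replicate block 5 members were called for white matter against cortex, 13 for spinal cord against cortex and 6 for spinal cord against white matter. The calls not made with the block were Etv1 in the first, Dao and Ppp1r17 in the second, and Fat2, Pde1c, Trove2, Ube2e3 and Vldlr in the third. No paired analysis was possible for rTg4510 and miR-142 because no title gives a replicate number; rTg4510 titles share no number between groups, and null and wild-type miR-142 titles share no code of letter and number (heterozygous and wild type share 1). Low depth limits the low genes, where a member can rest on 3 reads in a cerebellum library.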
